A study of Homo sapiens with 4 samples.

Results

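The lysosomal genes of NUDUL1 cells were compared between cells labelled control and cells labelled GNA13-deficient: the subunits of the proton pump, the cathepsins, a set of acid hydrolases with the proteins that handle their lipids, the lysosomal membrane proteins, and the transcription factors TFEB and TFE3. The rows whose symbol begins with ATP6V or ATP6AP, the rows named CTS with a single further letter and at most 1 digit, and 16 listed symbols gave 57 of the 25066 genes in the deposited table. Of these, 48 were above 0 in at least 2 of the 4 libraries and were tested among 16945 such genes. NUDUL1 is a human line from a diffuse large B cell lymphoma of the germinal center type. The labels give every library as Cas9 engineered, and the study's methods describe such lines as single-cell clones with doxycycline-inducible Cas9, transduced with the thromboxane receptor Tbxa2r and sorted for its Thy1.1 marker. The control cells carried a control sgRNA and the others an sgRNA against GNA13, which encodes the G protein Gα13. Both were treated with 10 nM U46619, a stable thromboxane-A2 analog, for 24 h, with 2 libraries per genotype, so that the comparison held genotypes under U46619 and no untreated cells. With 1 line per genotype, the genotype cannot be told apart from other differences between the lines. The labels speak of duplicate treatments, and p values therefore measure only the spread between duplicates, which may be technical.

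Lysosomes degrade proteins, glycans and lipids with hydrolases that work at acid pH. The acid is pumped in by the V-ATPase, a rotary machine in which a cytosolic V1 sector splits ATP and a membrane V0 sector carries protons. TFEB, TFE3 and MITF are related transcription factors that bind E-box motifs in promoters of lysosomal genes, and mTORC1, which itself sits on the lysosome, keeps them in the cytosol by phosphorylation. In B cells the same compartment processes antigen for MHC class II.

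The libraries held 29209544 to 31537955 mapped reads. Values are normalized reads on the log2 scale, a difference of 1 being a doubling, and the reads behind them were recovered from the steps of the low values. GNA13 itself had log2 values of 12.46 and 12.45 in the control libraries, against 13.10 and 13.11 under the label GNA13-deficient, which is 0.65 higher (limma, adjusted p = 0.00214, standard error 0.05). Its mRNA was thus not lower where the label says the gene was disrupted, and every direction here rests on the labels. All 7 listed B cell markers were expressed, with CD79B at log2 values of 14.11 to 14.33. MS4A1 fell by 0.57 and BCL6, a repressor that marks germinal center B cells, fell by 2.49. Of 4 listed T cell markers, CD3D, CD3E and CD2 had no read in any library, and LCK, with 85 and 103 reads in control against 29 and 33, fell by 1.53.

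Of the 48 tested genes, 9 rose and 9 fell under the label GNA13-deficient, with an adjusted p under 0.05 by limma over all genes tested. That is 37.5% of them, beside 29.7% of all genes tested, of which 13.1% were higher and 16.6% lower, so the number of calls alone does not set these genes apart. The median difference was 0.04, against -0.02 over all genes. Only CTSO and TFE3 combined a call with a difference of 1 or more; the other 16 called genes differed by less than 0.7. When each library was centred on its median, which moved the median of all genes to 0.18, 15 were higher and 5 lower. All 18 called genes kept their sign under the 15 alternatives tried, for each in which the gene was tested. With any 1 of the 4 libraries left out, limma called 0 genes at all, although 5257 to 5600 genes, 16 to 18 of the 48 among them, had an unadjusted p under 0.05, so each call rests on having both duplicates of both genotypes.

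**Figure D1:**
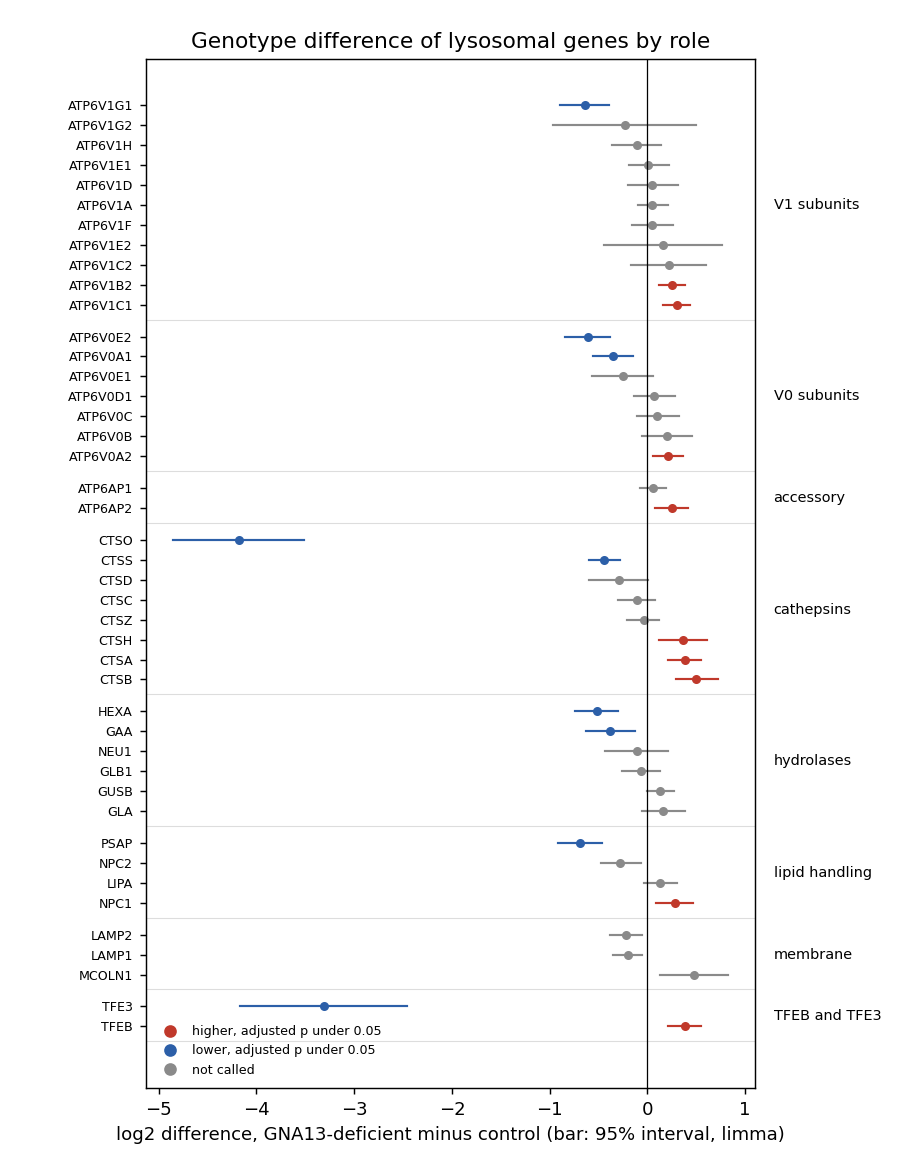
Log2 difference between libraries labelled GNA13-deficient and control (x axis) for 43 of the 48 tested genes, grouped by role; points are limma estimates and bars their 95% intervals, and the 5 genes with both genotype means under a log2 value of 4 are not drawn. CTSO at -4.18 and TFE3 at -3.31 lie far to the left of every other gene, and the pump subunits cluster within 0.64 of 0.

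The transcription factors moved apart. TFE3 (Entrez 7030; GRCh37 chromosome X, 48886237 to 48900936, minus strand) had log2 values of 7.73 and 7.80 in the control libraries and 4.04 and 4.86 in those labelled GNA13-deficient, or 208 and 226 reads against 16 and 27. Both libraries labelled GNA13-deficient lay far below both controls, although they differed from each other by more than the controls did. TFE3 fell by 3.31 on the log2 scale, 9.94-fold (limma, adjusted p = 0.00352, standard error 0.33). TFEB (Entrez 7942; chromosome 6, 41651716 to 41703997, minus strand) had values of 9.61 and 9.70 in control and 10.04 and 10.03 in the other libraries. It rose by 0.38, or 1.30-fold (standard error 0.07, adjusted p = 0.0147), again without overlap. Per kb of the longest annotated transcript, TFEB had 217 and 230 normalized reads in control and 292 and 289 in libraries labelled GNA13-deficient, whereas TFE3 had 64.3 and 67.6 in control and 4.99 and 8.82 in the others. The log2 ratio of TFEB to TFE3 within a library was 1.88 and 1.90 in control and 6.00 and 5.17 in libraries labelled GNA13-deficient. TFEB was thus the more abundant mRNA of the pair per kb in each library, and the gap widened. Without the filter on low values neither gene passed the threshold, and without the variance trend TFEB did not.

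MITF, the relative of TFEB best known from melanocytes, was a low-level gene here, with log2 values of 5.67 and 5.30 in control and 6.79 and 6.43 in libraries labelled GNA13-deficient. It rose by 1.13 (limma, adjusted p = 0.0326, standard error 0.26), with 50 and 40 reads in control against 108 and 80. That call was lost without the filter on low values or without the variance trend. TFEC, the remaining relative, had no read in any library. MITF belongs to a list of 14 genes that act with or on TFEB, of which 13 were tested, 2 rose and 1 fell. That is 23.1% called, beside 29.7% of all genes tested. The other rise was XPO1, the exportin that carries TFEB out of the nucleus, at 0.33. Quantile normalization, at 0.18, ended that call, as did leaving out the filter on low values or the variance trend. ZKSCAN3, described as a repressor of lysosomal and autophagy genes, fell by 0.95. Its call was lost with centring or quantile normalization, and without the filter on low values or the variance trend. The folliculin genes FLCN and FNIP1 had differences of 0.17 and -0.06 and were not called, as were the calcineurin subunits PPP3CA, PPP3CB and PPP3R1, at 0.03 to 0.07.

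**Figure D2:**
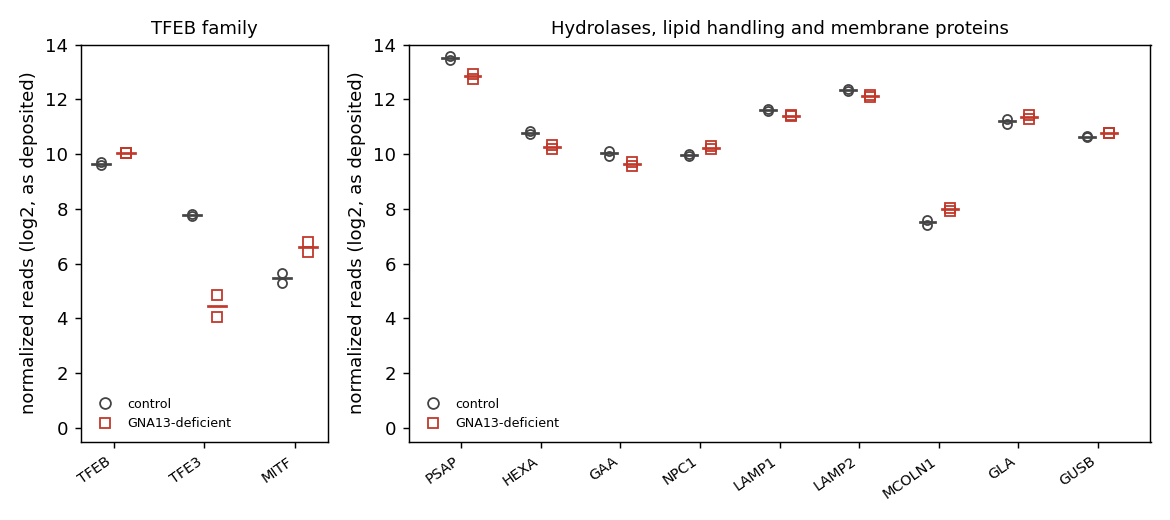
Normalized reads on the log2 scale, as deposited (y axis), in the 2 control libraries (circles) and the 2 libraries labelled GNA13-deficient (squares), with the genotype mean as a line. TFE3 drops from 7.73 and 7.80 to 4.04 and 4.86, while TFEB and MITF sit higher in libraries labelled GNA13-deficient and the hydrolase and membrane genes shift by less than 1.

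The E-box bound by the TFEB family is part of many lysosomal promoters, and the promoter sequences are shown for that reason. In the 250 bases before the annotated start (RefSeq, GRCh38.p14), searched on both strands, TCACGTG was held by 10 of the 32 tested genes that have a promoter in the table used (31.2%), against 3.38% of 27305 promoters. The core CACGTG, which lies within TCACGTG, was held by the same number (10 of 32), against 6.49% of all promoters. In a longer list of lysosomal genes outside the rule, described below, 45 had a promoter in the table used. Of these, 5 held TCACGTG (11.1%) and 6 held CACGTG (13.3%), lower shares than among the 32. Of the genes that were called higher, 1 of 6 with a promoter in the table held TCACGTG, of those called lower 3 of 5 did, and of those not called 6 of 21 did. The promoters of TFEB and TFE3 held none in this window. Printed here are the 4 called genes with the motif, ATP6V1G1, ATP6V0E2, GAA and CTSA, and the 2 membrane protein genes LAMP1 and MCOLN1, which had 5 and 2 copies of the core. They are read 5′ to 3′ in the direction of the gene, from chr9:114587519-114587768, chr7:149872718-149872967, chr17:80101331-80101580, chr20:45891085-45891334, chr13:113296989-113297238 and chr19:7522374-7522623, all on the plus strand. Capitals mark TCACGTG and its reverse complement CACGTGA. A match is a letter pattern and no evidence of binding in these cells.
ATP6V1G1: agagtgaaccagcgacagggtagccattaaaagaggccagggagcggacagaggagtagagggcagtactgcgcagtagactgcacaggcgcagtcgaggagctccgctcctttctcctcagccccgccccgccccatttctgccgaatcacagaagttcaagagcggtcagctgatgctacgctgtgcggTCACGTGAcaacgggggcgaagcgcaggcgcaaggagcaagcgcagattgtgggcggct
ATP6V0E2: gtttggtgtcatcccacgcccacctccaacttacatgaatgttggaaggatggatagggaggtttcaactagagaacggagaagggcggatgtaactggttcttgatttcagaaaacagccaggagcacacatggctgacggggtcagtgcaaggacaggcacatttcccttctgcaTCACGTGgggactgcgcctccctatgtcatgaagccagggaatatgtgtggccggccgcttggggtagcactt
GAA: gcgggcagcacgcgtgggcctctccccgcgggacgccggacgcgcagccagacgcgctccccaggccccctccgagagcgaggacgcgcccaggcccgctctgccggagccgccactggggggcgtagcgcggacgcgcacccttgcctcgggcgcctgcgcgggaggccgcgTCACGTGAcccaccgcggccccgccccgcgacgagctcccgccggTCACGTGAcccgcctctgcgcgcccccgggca
CTSA: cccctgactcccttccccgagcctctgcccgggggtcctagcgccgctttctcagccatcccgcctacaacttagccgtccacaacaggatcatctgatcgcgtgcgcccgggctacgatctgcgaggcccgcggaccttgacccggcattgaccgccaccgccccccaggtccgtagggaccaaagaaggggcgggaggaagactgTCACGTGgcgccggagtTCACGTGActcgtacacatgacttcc
LAMP1: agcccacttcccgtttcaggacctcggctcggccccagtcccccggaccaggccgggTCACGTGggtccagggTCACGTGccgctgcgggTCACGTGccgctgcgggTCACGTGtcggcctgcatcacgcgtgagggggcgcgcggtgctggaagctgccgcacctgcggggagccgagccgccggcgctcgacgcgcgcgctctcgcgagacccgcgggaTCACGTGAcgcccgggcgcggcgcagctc
MCOLN1: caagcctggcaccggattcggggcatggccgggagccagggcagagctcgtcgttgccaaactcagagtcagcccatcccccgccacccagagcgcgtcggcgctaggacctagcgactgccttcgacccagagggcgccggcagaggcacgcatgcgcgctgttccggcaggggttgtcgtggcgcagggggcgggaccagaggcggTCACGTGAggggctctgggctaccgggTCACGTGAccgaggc

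Most pump subunits differed little. Of the 19 tested V1 and V0 subunit genes, 3 rose and 3 fell, and the median difference was 0.05. That is 31.6% called, beside 29.7% of all genes tested. The remaining 13 were not called. In the V1 sector, 12 genes were tested, with 2 higher and 1 lower (25% called). ATP6V1G1 (Entrez 9550; chromosome 9, 117349986 to 117361195), the G subunit of the stalk that holds the sectors together, had values of 11.48 and 11.46 in control and 10.70 and 10.96 in libraries labelled GNA13-deficient. The genotypes were apart by more than the spread of either, and ATP6V1G1 fell by 0.64, or 1.56-fold (limma, adjusted p = 0.0103, standard error 0.10). GENCODE names 7 pseudogenes after it, and how reads shared with them were counted is not stated. The C subunit ATP6V1C1, which joins the stalk to the membrane sector, was at 10.93 and 10.88 in control and 11.22 and 11.18 in the others and rose by 0.30 (standard error 0.05, adjusted p = 0.0160). ATP6V1B2, a subunit of the ATP-splitting ring, rose by 0.25 (standard error 0.05, adjusted p = 0.0224). Its partner in that ring, ATP6V1A, was at 11.64 and 11.73 in control and 11.77 and 11.71 in the other libraries, so its genotypes overlapped.

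The V0 sector had 7 tested genes, of which 1 rose and 2 fell (42.9% called, beside 29.7% of all genes tested). The a subunit, whose isoforms place the pump on different membranes, changed in opposite directions between isoforms. ATP6V0A1 (Entrez 535) was at 9.07 and 9.02 in control and 8.67 and 8.72 in libraries labelled GNA13-deficient and fell by 0.35 (limma, adjusted p = 0.0307, standard error 0.08). ATP6V0A2 (Entrez 23545), at 11.01 and 10.93 against 11.18 and 11.17, rose by 0.21 (standard error 0.06, adjusted p = 0.0478). The log2 ratio of ATP6V0A2 to ATP6V0A1 was 1.94 and 1.91 in control and 2.51 and 2.45 in the others, with no overlap; with 2 libraries against 2, an exact permutation test cannot go below p = 0.333. Quantile normalization ended both calls, as did leaving out the variance trend, and centring on the median ended that of ATP6V0A1. A pseudocount of 1, a robust variance prior or no filter on low values ended that of ATP6V0A2. ATP6V0A2 was called under 6 of the 11 alternatives that kept the 4 libraries. TCIRG1, the gene of a further a isoform, had a difference of -0.13 and was not called, and ATP6V0A4 had no read.

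The largest V0 difference was in the e subunit, a small membrane protein. ATP6V0E2 (Entrez 155066; chromosome 7, 149570057 to 149588293) was at 8.99 and 9.03 in control and 8.34 and 8.46 in libraries labelled GNA13-deficient and fell by 0.61, or 1.52-fold (limma, adjusted p = 0.00948, standard error 0.09). The call held under all 11 alternatives that kept the 4 libraries. The antisense gene ATP6V0E2-AS1 overlaps it, and whether the counting used the strand of the stranded libraries is not stated. Its paralog ATP6V0E1 was at 11.11 and 11.37 against 10.87 and 11.10, a difference of -0.25 with a 95% interval of -0.57 to 0.06, and was not called. The ring subunits ATP6V0B and ATP6V0C and the d subunit ATP6V0D1 had differences of 0.20, 0.10 and 0.07 and were not called either.

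**Figure D3:**
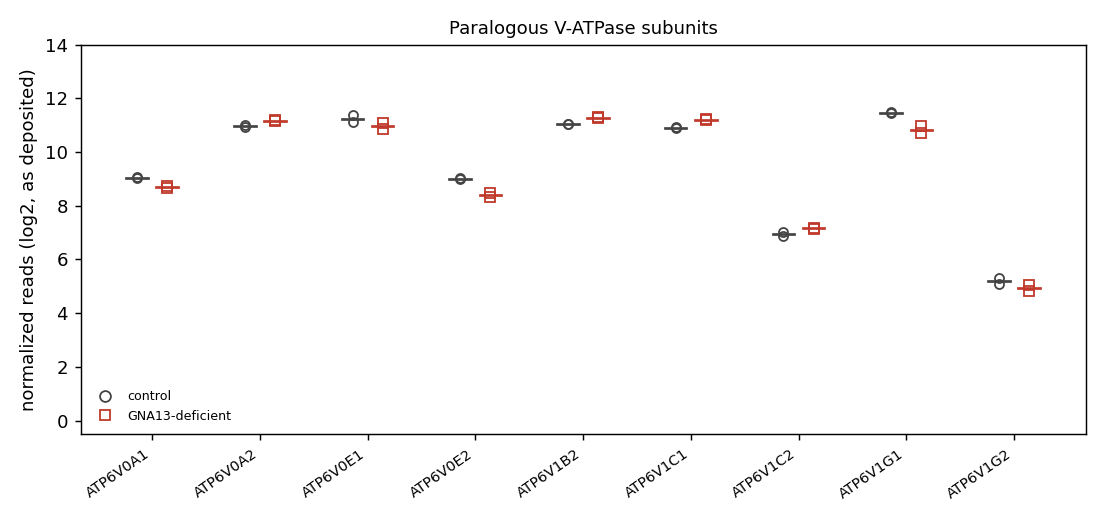
Normalized reads on the log2 scale, as deposited (y axis), of paralogous V-ATPase subunit genes in 2 control libraries (circles) and 2 libraries labelled GNA13-deficient (squares), with genotype means as lines. ATP6V0A1 and ATP6V0A2 shift in opposite directions, and ATP6V1G1 and ATP6V0E2 sit lower in libraries labelled GNA13-deficient.

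Tissue-restricted pump paralogs were low or had no read. ATP6V1G2, typical of neurons, had 33 and 40 reads in control and 28 and 31 in the other libraries; it is also part of a readthrough gene with DDX39B. ATP6V1C2 was at 7.03 and 6.88 against 7.15 and 7.19, with no call. ATP6V1B1 had 10 reads in control replicate 2 and none elsewhere, and ATP6V0D2 had none. ATP6V1G3, with 1 and 0 reads in control and 2 and 0 in the others, lay just inside the limit for testing, and CTSE, with 5 reads in 1 library labelled GNA13-deficient and none in the other libraries, just outside it. Of the accessory proteins, ATP6AP2, the prorenin receptor that helps to assemble the pump, was at 11.91 and 11.93 in control and 12.11 and 12.24 in libraries labelled GNA13-deficient and rose by 0.25 (limma, adjusted p = 0.0420, standard error 0.06). That call was lost with quantile normalization, and without the filter on low values or the variance trend. ATP6AP1 differed by 0.06 and was not called, and ATP6AP1L was too low to read, with a 95% interval of -1.20 to 1.27.

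Proteins that assemble or bind the pump were counted from a separate list. From 13 listed symbols, which can include older and newer names of 1 gene, 11 genes were tested, 3 rose and 2 fell. That is 45.5% called, beside 29.7% of all genes tested. DMXL2 had values of 7.61 and 7.44 in control and 9.29 and 9.12 in libraries labelled GNA13-deficient and rose by 1.68, or 3.20-fold (limma, adjusted p = 0.00176, standard error 0.12). Its partner WDR7, which forms the rabconnectin-3 complex with it, rose by 0.45, while their associate ROGDI fell by 0.64. The ROGDI call was lost with centring or quantile normalization, and without the filter on low values or the variance trend. NCOA7, a protein of the TLDc family that binds the pump, fell by 0.76. DMXL1, the paralog of DMXL2, was at 11.15 and 11.08 against 11.13 and 10.92 and was not called. The glycolytic enzyme aldolase, ALDOA, listed because it binds the pump, rose by 0.51.

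Among the cathepsins, 10 of 16 genes were tested, 3 rose and 2 fell (50% called, beside 29.7% of all genes tested). CTSO (Entrez 1519; chromosome 4, 156842732 to 156875064, minus strand), a cysteine protease of the papain family, had values of 8.49 and 8.66 in control and 4.68 and 4.11 in libraries labelled GNA13-deficient, or 353 and 411 reads against 25 and 16. Its mRNA was well detected in both controls and near the bottom of the measured range in the others. CTSO fell by 4.18 on the log2 scale, 18.1-fold (limma, adjusted p = 0.00152, standard error 0.26), and left-out libraries moved the difference between -4.47 and -3.89. The call held under all 10 alternatives with 4 libraries in which it was tested. No other annotated gene overlaps it. CTSS, the protease that trims the invariant chain of MHC class II in B cells, was at 12.11 and 12.15 in control and 11.64 and 11.74 in the others. It fell by 0.44, or 1.36-fold (standard error 0.06, adjusted p = 0.00777). Centring on the median ended that call, as did leaving out the filter on low values or the variance trend.

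The rises were in CTSB, CTSA and CTSH. CTSB, a broad cysteine protease, was at 10.30 and 10.51 in control and 10.90 and 10.92 in libraries labelled GNA13-deficient and rose by 0.50, or 1.42-fold (limma, adjusted p = 0.0136, standard error 0.08). CTSA, a serine carboxypeptidase that also shields NEU1 and GLB1 from degradation, rose by 0.38 (standard error 0.07, adjusted p = 0.0143), from 10.35 and 10.47 to 10.77 and 10.82, and its gene overlaps NEURL2 and PLTP on the opposite strand. CTSH, an aminopeptidase, rose by 0.36 (standard error 0.10, adjusted p = 0.0462). These 3 had no overlap between genotypes, as had 65.3% of all genes tested (31.3% higher and 34% lower).

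CTSC, CTSZ and CTSD were abundant and not called. CTSC, which activates serine proteases of granules, had a difference of -0.11 with a 95% interval of -0.30 to 0.08, and CTSZ one of -0.04 with an interval of -0.21 to 0.12. The aspartic protease CTSD was at 9.59 and 9.87 in control and 9.37 and 9.50 in the others, a difference of -0.29 with an interval of -0.60 to 0.01. CTSK had 14 and 12 reads against 11 and 5, and CTSW, a cathepsin of cytotoxic lymphocytes, 0 and 2 against 2 and 6. CTSF and the genes listed as CTSL1, CTSL2 and CTSL3 had no read in any library, which allows up to 3 reads each and covers counting error only, and CTSG had 1 read. Per kb of the longest transcript, CTSS led with 1084 and 1119 normalized reads in control and still did so with 781 and 841 in libraries labelled GNA13-deficient. Summed over the tested cathepsins, normalized reads were 17643 and 18950 in control and 16564 and 17745 in the others, so the genotypes overlapped.

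Most of the listed inhibitors of proteases were lower. Of 9 cystatins and serpins of clade B, 7 were tested, 6 fell and none rose. That is 85.7% called, beside 29.7% of all genes tested, of which 16.6% were lower. The list was chosen with earlier results of these data known. Its median difference was -1.77, and 5 of its genes fell by 1 or more. Cystatins block cysteine cathepsins, whereas SERPINB9 is best known as the granzyme B inhibitor and SERPINB8 inhibits furin. CSTA, stefin A, a cytosolic inhibitor of cysteine cathepsins, was at 8.41 and 8.61 in control and 4.89 and 5.06 in libraries labelled GNA13-deficient, or 334 and 397 reads against 29 and 31. It fell by 3.53, or 11.6-fold (limma, adjusted p = 0.00110, standard error 0.18). CSTB, stefin B, chosen after its values were seen, was at 10.67 and 10.83 in control and 8.91 and 9.04 in the others and fell by 1.77, or 3.42-fold (standard error 0.09, adjusted p = 0.00102). SERPINB8 went from 7.87 and 8.01 to 4.68 and 4.01 and fell by 3.59 (standard error 0.29, adjusted p = 0.00227). CST3, the secreted cystatin C, had 23 and 40 reads in control and 4 and 1 in the others, a call that rests on few reads and was lost without the filter on low values or without the variance trend. SERPINB9 fell by 1.23 and SERPINB1 fell by 0.61, whereas SERPINB6 was at 6.45 and 6.39 against 6.08 and 6.86 and was not called.

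Summed normalized reads of the 7 cystatins and serpins were 5094 and 5598 in control and 2244 and 2476 in libraries labelled GNA13-deficient. SERPINB1 had the highest log2 value of the 7 in each library, at 10.91 and 11.12 in control and 10.31 and 10.50 in the others. The log2 ratio of CTSB to CSTB was -0.37 and -0.32 in control and 1.99 and 1.88 in the others and did not overlap between genotypes; only its change can be read, since the values are not per length. CSTA, LYZ and ITGAM are also expressed by myeloid cells. Of 6 listed myeloid markers, 4 were tested and 2 fell, ITGAM by 5.21 and LYZ by 2.53, and none rose. That is 50% called, beside 29.7% of all genes tested. CD163 and FCGR1A had at most 1 read in any library and CD14 at most 2. The summed level of the tested myeloid markers was 228 and 242 normalized reads in control and 27.7 and 26.9 in libraries labelled GNA13-deficient. Their part in the result was not tested, and fewer cells of a type and less RNA per cell cannot be told apart in bulk RNA.

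**Figure D4:**
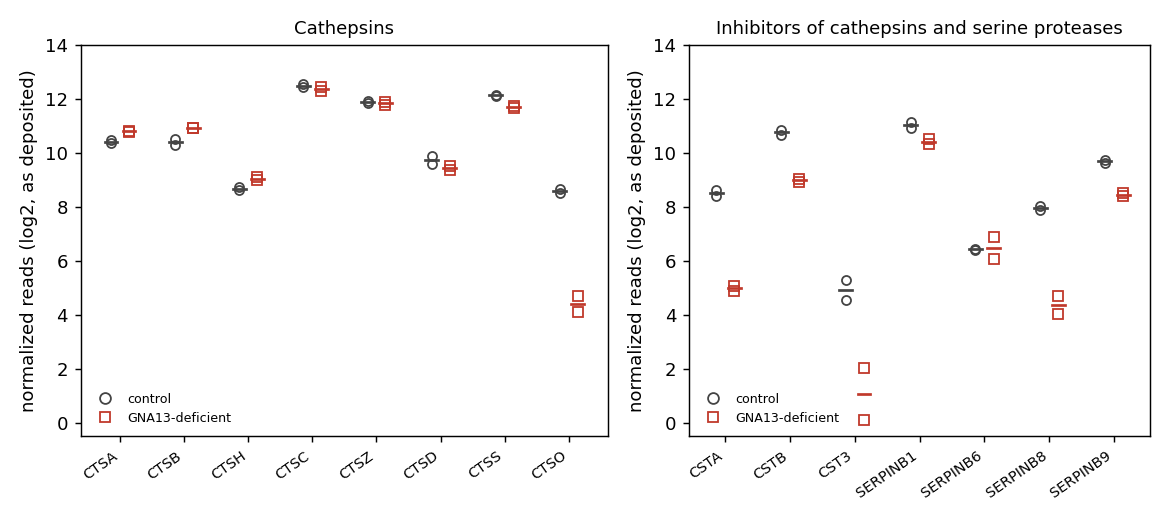
Normalized reads on the log2 scale, as deposited (y axis), of cathepsins (left) and of cystatins and clade B serpins (right) in 2 control libraries (circles) and 2 libraries labelled GNA13-deficient (squares), with genotype means as lines. CTSO drops from 8.49 and 8.66 to 4.68 and 4.11, and all inhibitors but SERPINB6 are lower in libraries labelled GNA13-deficient.

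Of the 6 acid hydrolases among the listed genes, 2 fell and none rose, a share of 33.3% beside 29.7% of all genes tested. HEXA, the α subunit of the β-hexosaminidase that clears GM2 ganglioside, had values of 10.73 and 10.85 in control and 10.19 and 10.35 in libraries labelled GNA13-deficient and fell by 0.52, or 1.44-fold (limma, adjusted p = 0.0123, standard error 0.08). GAA, the α-glucosidase that degrades glycogen, was at 9.94 and 10.13 against 9.58 and 9.73 and fell by 0.38, or 1.30-fold (standard error 0.10, adjusted p = 0.0410). Both genes had no overlap. Centring on the median ended both calls, as did leaving out the filter on low values or the variance trend. HEXA overlaps the antisense gene HEXA-AS1. The galactosidases GLA and GLB1 had differences of 0.16 and -0.07, the glucuronidase GUSB 0.13 and the sialidase NEU1 -0.11, and none was called; GENCODE names 18 pseudogenes after GUSB.

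Of the 4 genes for proteins that handle lysosomal lipids, 1 rose and 1 fell, a share of 50% beside 29.7% of all genes tested. PSAP (Entrez 5660; chromosome 10, 73576055 to 73611008, minus strand), the precursor of the saposins that present sphingolipids to their hydrolases, had the most reads of the 48 genes, with log2 values of 13.45 and 13.60 in control and 12.76 and 12.92 in libraries labelled GNA13-deficient, or 11021 and 12655 reads against 6769 and 7225. It fell by 0.69, or 1.61-fold (limma, adjusted p = 0.00663, standard error 0.09). Both libraries labelled GNA13-deficient lay below both controls by several times the difference between duplicates. NPC1, the membrane protein that exports cholesterol from lysosomes, went the other way, from 9.99 and 9.93 to 10.30 and 10.18, and rose by 0.28 (standard error 0.07, adjusted p = 0.0429). Without the filter on low values neither PSAP nor NPC1 passed the threshold, and without the variance trend NPC1 did not. NPC2, the soluble protein that hands cholesterol to NPC1, was at 9.89 and 10.04 in control and 9.66 and 9.72 in the others, a difference of -0.28 that missed the threshold (adjusted p = 0.0561) and was called under 4 of 11 alternatives with all libraries. LIPA, the acid lipase, had a difference of 0.13 with a 95% interval of -0.04 to 0.30.

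No membrane protein among the listed genes was called, and 3 of the 4 had no overlap, beside 65.3% of all genes tested. LAMP1 was at 11.57 and 11.64 in control and 11.38 and 11.42 in libraries labelled GNA13-deficient, a difference of -0.20 (adjusted p = 0.0523 from limma) that changed sign, to 0.0065, when libraries were centred on their medians but was called lower under 5 of the 11 alternatives that kept the 4 libraries. LAMP2 was at 12.37 and 12.30 against 12.07 and 12.16, a difference of -0.22 (adjusted p = 0.0510) that was called lower under 8 of 11 alternatives and was -0.01 with centring. MCOLN1, the calcium channel that acts upstream of TFEB, was at 7.42 and 7.61 against 8.05 and 7.93, a difference of 0.48 (adjusted p = 0.0538) whose interval ran from 0.13 to 0.82 and which was called higher under 8 of 10 alternatives. LAMP3, known from dendritic cells, had 9 and 5 reads in control and 5 and 4 in the others.

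A longer list of 58 lysosomal hydrolases, transporters and membrane proteins outside the rule was counted beside these genes. Of 57 tested, 17 fell and 2 rose, and 38 were not called, with a median difference of -0.13; over all genes tested 16.6% fell and 13.1% rose, and the 33.3% of the list that were called stand beside 29.7%. ACP5, tartrate-resistant acid phosphatase, had values of 7.25 and 7.52 in control and 3.85 and 4.11 in libraries labelled GNA13-deficient and fell by 3.41, or 10.6-fold (limma, adjusted p = 0.00204, standard error 0.25). SGSH, the sulfamidase of heparan sulfate breakdown, fell by 1.51, and the transporter ABCA2 by 1.47. The ABCA2 call rests on 41 and 53 reads in control against 16 and 16, and quantile normalization or leaving out the filter ended it. Among the rises was ARSB, the arylsulfatase of dermatan sulfate, at 0.39. With median centring 8 of the list rose and 11 fell, and with genes under the median level left out 3 rose and 10 fell.

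**Figure D5:**
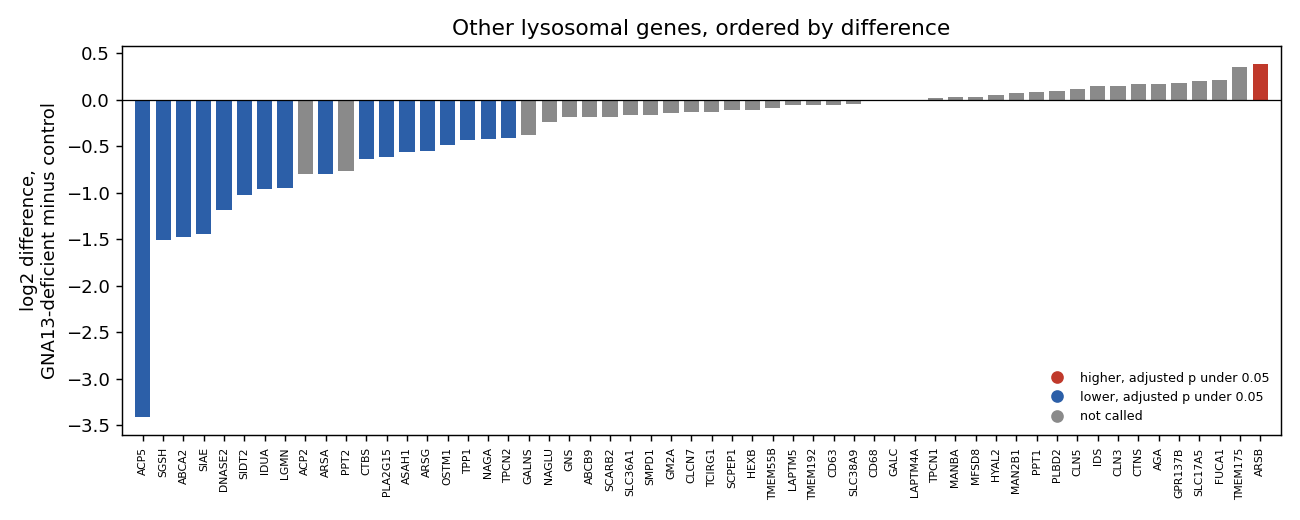
Log2 difference between libraries labelled GNA13-deficient and control (y axis; bars without error) of 56 of the 57 tested lysosomal genes outside the rule, ordered by size and coloured by the limma call. The 17 lower calls reach from ACP5 at -3.41 to TPCN2 at -0.41, and ARSB at 0.39 is the higher call drawn.

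Hydrolases reach lysosomes through receptors that bind mannose 6-phosphate or the protein itself. Of 10 listed genes of this route, 3 fell and none rose, so 30% were called, beside 29.7% of all genes tested. SORT1 (Entrez 6272; chromosome 1, 109852190 to 109940540, minus strand), sortilin, which binds prosaposin among other cargo, was at 10.51 and 10.60 in control and 7.70 and 7.42 in libraries labelled GNA13-deficient, or 1434 and 1581 reads against 203 and 159. It fell 7.98-fold, a log2 difference of -3.00 (limma, adjusted p = 0.000816, standard error 0.12), and the call held under all 11 alternatives that kept the 4 libraries. SUMF1, which activates sulfatases, fell by 0.51 and the adaptor GGA1 fell by 0.26. Both calls were lost with centring, and without the filter on low values or the variance trend. Quantile normalization also ended that of SUMF1. The mannose 6-phosphate receptors IGF2R and M6PR had differences of -0.22 and 0.18 and were not called.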

How the data were processed

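The series holds RNA sequencing libraries of NUDUL1 cells, 2 per genotype. Alignment by the authors used STAR and hg19, and the submitters' processing notes also name HTSeq; the annotation and the method of normalization are not given in the sources used here. The authors deposited normalized reads on the log2 scale, used here without a pseudocount, and a linear row of library totals. Whole reads were recovered from the low values by 1 factor per library, which held for 100% of nonzero values of up to 400 reads, within 0.0015 on the log2 scale. In control replicate 2 a listed 0 can stand for 1 read. Limma 3.58.1 in R 4.3.3 (lmFit, eBayes with a mean-variance trend) was fitted to 16945 genes above 0 in at least 2 libraries, on genotype alone, which leaves 2 residual degrees of freedom. Benjamini-Hochberg adjustment covered all these genes, with a threshold of 0.05. Positions and transcript lengths are from GENCODE v44lift37 (GRCh37, the assembly of hg19).

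Members and lists were chosen with earlier results of these data known. Full values are given for TFEB, TFE3, the LAMP genes, the 3 largest called differences in each role and list, and paralogs of named pump subunits; other genes outside the rule that are named were chosen after their values were seen. Alternatives were other filters, pseudocounts of 1 and 10, quantile normalization, median centring, the replicate number as a block, no trend, a robust prior, voom weights on recovered reads, and each library left out. Some listed genes are not reported here by name.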

Additional observations from a re-analysis of the deposited data

How the results depend on the processing

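The count of genes called was 5037, and 1999 without the filter (1885 shared) and 2718 without the variance trend (2520 shared). With any 1 of the 4 libraries left out, limma called 0 genes in all, 0 of the lysosomal genes and 0 of the longer lysosomal list in either direction, while 5257 to 5600 genes, among them 16 to 18 of the 48, had an unadjusted p under 0.05; the lone library is then assumed to vary like the pair. Of the 48 genes, the higher calls went from 9 to 2 without the filter, 0 without the trend (17 of the 48 then had an unadjusted p under 0.05) and 15 with centring, and the lower calls from 9 to 3, 4 and 5. Of the 18 called genes, 2 (CTSO and ATP6V0E2) were called under every alternative with 4 libraries in which they were tested, and 10 others were lost only without the filter or the trend. The median difference of 0.04 became 0.252 with centring and ranged from -0.064 to 0.035 with a library left out. In the longer list, higher calls went from 2 to 8 with centring and 1 without the trend, and lower calls from 17 to 6 without the filter, 10 with the filter at the median, 11 with centring and 9 without the trend. Of all calls, 44.03% were higher as deposited and 69.14% with centring. The causes were not tested.

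Both genotypes have replicates 1 and 2, but nothing in the labels or methods says that equal numbers mark a pair. Deviations from the genotype mean correlated at 0.453 between equal numbers across 8473 genes, which share libraries. A fit with the replicate block called 6616 genes, and the lower calls among the 48 went to 14.

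Genes that were not called changed sign as follows. With centring ATP6V1H was 0.10, CTSC 0.10, CTSZ 0.16, GLB1 0.14, LAMP1 0.0065 and NEU1 0.10. With quantile normalization ATP6V1A was -0.0028, ATP6V1E1 -0.02 and ATP6V1G2 0.23. Over the fits that lack 1 library, the difference ranged from -0.43 to 0.50 for ATP6AP1L, -0.02 to 0.16 for ATP6V0D1, -0.05 to 0.16 for ATP6V1D, -0.08 to 0.10 for ATP6V1E1, -0.04 to 0.14 for ATP6V1F, -0.01 to 1.02 for ATP6V1G3, -0.23 to 0.0065 for ATP6V1H, -0.10 to 0.01 for CTSZ, -0.15 to 0.01 for GLB1 and -0.24 to 0.01 for NEU1.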

Other observations

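Within both genotypes, replicate 2 lay above replicate 1 for 29 of the 48 lysosomal genes (60.4%), against 27% of all 16945 genes tested. Among genes with a mean log2 value of 7 or more, this held for 26 of 39 lysosomal genes (66.7%) and for 34.8% of all 9632 such genes. It held for 8 of the 10 tested cathepsins and 10 of the 19 V1 and V0 subunit genes. The median of replicate 2 minus replicate 1 over the 48 genes was 0.09 in control and 0.11 in the libraries labelled GNA13-deficient, larger than the median genotype difference of 0.04. Genes measured in the same libraries are not independent, and no source says what the replicate numbers share.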
